A study of Mus musculus with 24 samples.

Results

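The genes of platelet-derived growth factor (PDGF) and fibroblast growth factor (FGF) signalling were followed in quiescent and cycling cells of 3 mouse mammary carcinoma lines. The set was given by symbol: the PDGF ligands Pdgfa, Pdgfb, Pdgfc and Pdgfd, the PDGF receptors Pdgfra and Pdgfrb, the FGF ligands Fgf2 and Fgf7, and the FGF receptors Fgfr1 and Fgfr2. All 10 were found among the 24034 symbols that the count tables of the 3 lines share. Cells of each line (4T07, D2A1 or EMT6) had been transduced with mCherry and with mVenus-p27k, a fluorescent reporter built on the cell cycle inhibitor p27, which is abundant in resting cells. Female Balb/cJ mice, whose age is not given in the sources used here, received 250000 such cells in the mammary fat pad, and tumour harvest was on day 14. Sorting split every tumour into p27K high and p27K negative cells, so all groups shared the host strain, the reporter and the time point. This gave 24 libraries of bulk RNA from 12 tumours, with 4 tumours per line. Whether each line was used as a clone is not given in the sources used here. Each line was sequenced in a run of its own, so line and run cannot be told apart.

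PDGF ligands are secreted dimers that bind PDGF receptor alpha (Pdgfra) and PDGF receptor beta (Pdgfrb), tyrosine kinases best known from fibroblasts and pericytes. PDGF-A and PDGF-C act mainly on the alpha receptor, PDGF-B on both, and PDGF-D mainly on the beta receptor. FGF ligands bind FGF receptors together with heparan sulfate: FGF2 is bound by several receptors including Fgfr1, whereas FGF7 (keratinocyte growth factor) acts through an epithelial splice form of Fgfr2. Both receptor families feed the RAS-ERK cascade, whose output is damped by Sprouty, Spred and dual-specificity phosphatase proteins. In the mammary gland FGF7 is known as a stromal signal to epithelium, and in mammary carcinomas PDGF ligands of tumour cells are known to act on the stroma. The counts are per gene and do not separate splice forms.

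The p27K gate could be read in every line by Mki67. Cdkn1b, which encodes p27, rose in p27K high cells: the 4T07 change was 0.89 ± 0.11, that of D2A1 0.46 ± 0.11 and that of EMT6 0.54 ± 0.04. These values and all changes below are log2 ratios, p27K high over negative within a tumour, with the standard error (SE), n = 4 tumours. Mki67, which encodes the proliferation antigen Ki-67, fell in the same order by values of -6.52, -5.92 and -5.31. The cells were sorted on a reporter built on p27, and whether its reads were counted as Cdkn1b is not given. The rise of Cdkn1b is therefore no independent check of the gate. A gene was called changed at a Benjamini-Hochberg adjusted p under 0.05 over all genes tested, by edgeR's quasi-likelihood test with the tumour as a block. Levels are CPM, the counts of a gene scaled to the TMM-adjusted size of its library.

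Library totals were 27887221 to 45460880 counts in 4T07 and 13769682 to 20142013 in EMT6. The 4T07 p27K high library of tumour 2 held counts for 13500 genes, against 15313, 15370 and 15094 genes in those of tumours 1, 3 and 4. D2A1 was uneven: its p27K high libraries had between 6727594 and 20174767 counts, while the p27K negative ones had 1335433 (tumour 1), 2110563 (tumour 2), 1802042 (tumour 3) and 15641189 (tumour 4). Low genes in those 3 D2A1 libraries therefore rest on few counts. The epithelial and carcinoma markers of the D2A1 p27K negative library of tumour 1 summed to 457 CPM, against 62.7 to 183 CPM in the other p27K negative libraries of the line. The EMT6 libraries carry the numbers 0, 1, 2 and 4. The EMT6 p27K high library of tumour 0 stood apart: 38 genes that were at 50 CPM or more in all 8 libraries of 4T07, and under a mean of 2 CPM in the p27K negative libraries of EMT6, summed to 345 CPM there. The same genes summed to 26 to 47.3 CPM in the other 7 EMT6 libraries and to 4627 to 9187 CPM in 4T07 libraries. That gene rule was set after the values were seen. Fgfr2 and Fgf7 are high in 4T07, so their EMT6 values are given with and without tumour 0.

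The PDGF and FGF genes were mostly higher in p27K high cells. They were chosen with earlier results of these data known, so the shares of all genes below give a scale and no test of the set. In 4T07, 8 members passed the filter on low counts, of which 6 rose and 1 fell, where 22.1% of all genes tested rose and 23.6% fell. In D2A1, 8 were tested, 4 rose and 1 fell, against 14.9% and 14.7% of all genes. In EMT6, 7 were tested, 6 rose and 0 fell, against 24.1% and 25.1% of all genes. Pdgfb, the member that fell in 4T07 and D2A1, was not among the 7. It had 2 counts over the p27K high and 18 over the p27K negative libraries of EMT6. The 0 that fell in EMT6 stayed 0 at an unadjusted p under 0.05, by DESeq2 and by limma voom. The median change of the tested members was 0.58 in 4T07, 0.64 in D2A1 and 0.57 in EMT6, and the median of all genes tested was within 0.02 of 0. The 4 p27K high libraries did not overlap the 4 p27K negative ones for 6 members in 4T07, 5 in D2A1 and 4 in EMT6. Over all genes tested the same held for 38% in 4T07, 30.9% in D2A1 and 34.3% in EMT6. The members that rose include both PDGF receptors and Fgfr1 in every line.

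**Figure D1:**
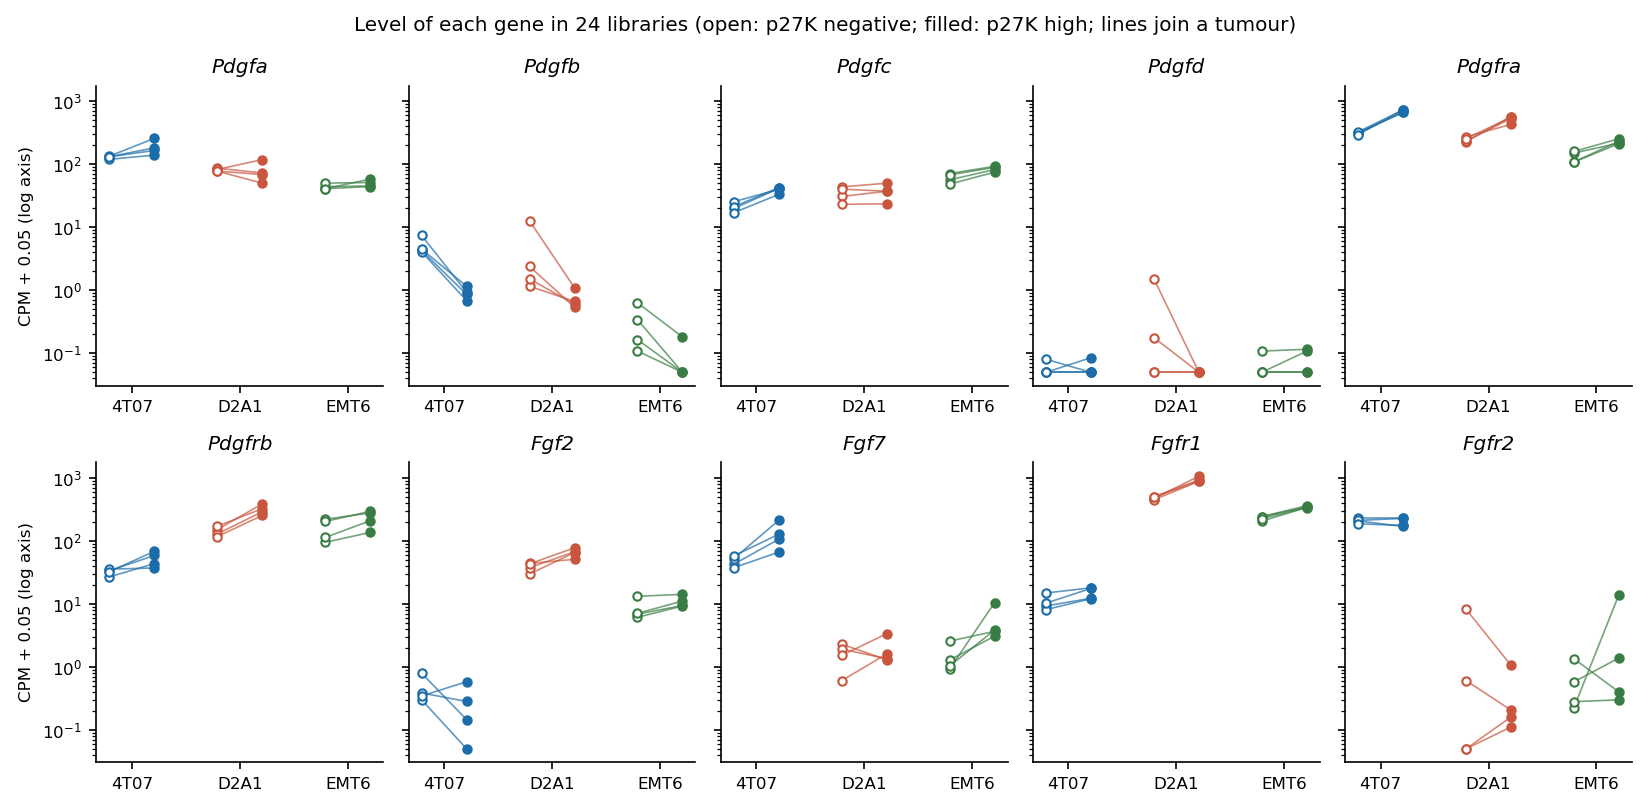
Level of each of the 10 genes in the 24 libraries, as CPM plus 0.05 on a log axis, by line, with open points for p27K negative, filled points for p27K high and a line joining the libraries of a tumour. The lines slope upward in all 12 tumours for Pdgfra, Pdgfrb and Fgfr1 and downward in all 12 for Pdgfb, and Fgf7 and Fgfr2 are high in 4T07 whereas Fgf2 and Fgfr1 are high in D2A1.

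All libraries were then fitted jointly, blocked by the 12 tumours, for the mean change over lines and for the question whether lines differed in it. Of 9 members tested there, 5 rose and 1 fell on average, where 28.3% of all genes rose and 24% fell. The change differed between lines for 4 members, against 24.5% of all genes tested. Those 4 were Pdgfc, Pdgfrb, Fgfr1 and Fgfr2. All 6 calls of the average were kept under every alternative tried, and each of the 4 calls of a difference was lost under at least 1.

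**Figure D2:**
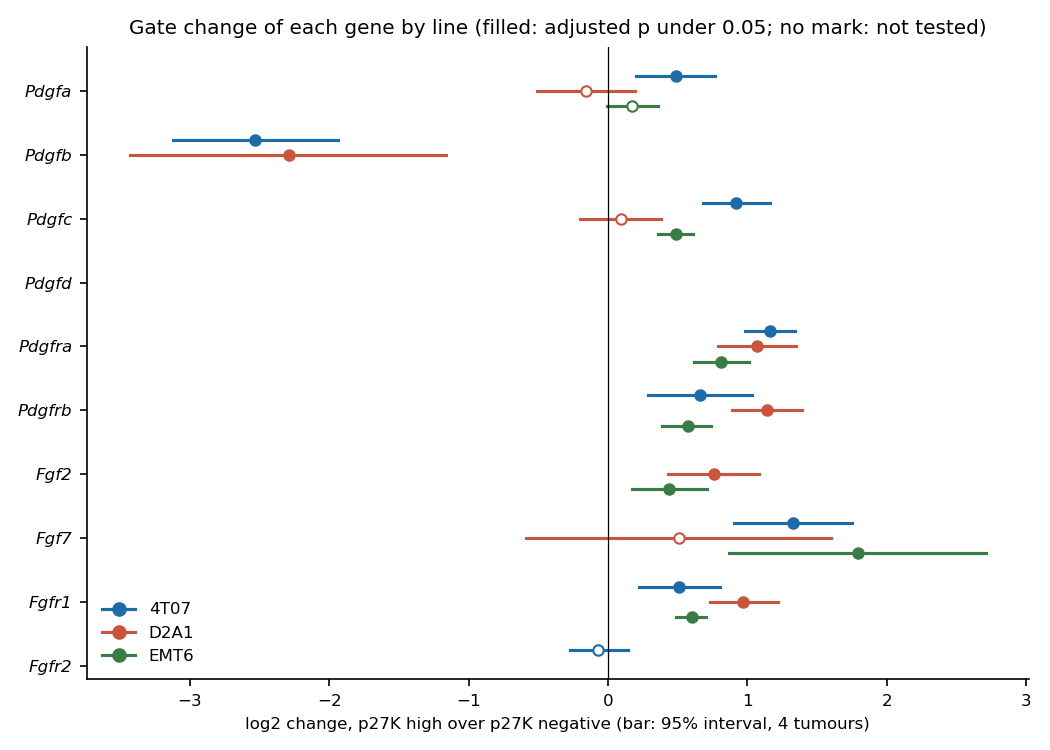
Change of each gene between gates by line, as log2 of p27K high over p27K negative with its 95% interval over 4 tumours; filled points were called at an adjusted p under 0.05, open points were not, and genes without a point were not tested. Pdgfra, Pdgfrb and Fgfr1 lie to the right of 0 in the 3 lines, and Pdgfb lies to the left in both lines tested.

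The stretches before the start are shown for a receptor, a PDGF ligand and an FGF ligand that rose together in 4T07 and EMT6. They are the 250 bases before the start in the RefSeq entries on GRCm38.p6, on the plus strand, for Pdgfra (chr5:75152001-75152250), Pdgfc (chr3:81036166-81036415) and Fgf7 (chr2:126034408-126034657). Capitals mark a match to a motif searched.
Pdgfra: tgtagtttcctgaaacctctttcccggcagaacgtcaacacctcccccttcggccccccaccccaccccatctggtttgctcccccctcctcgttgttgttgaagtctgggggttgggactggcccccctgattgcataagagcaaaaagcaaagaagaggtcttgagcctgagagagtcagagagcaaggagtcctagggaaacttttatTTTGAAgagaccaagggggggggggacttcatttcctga
Pdgfc: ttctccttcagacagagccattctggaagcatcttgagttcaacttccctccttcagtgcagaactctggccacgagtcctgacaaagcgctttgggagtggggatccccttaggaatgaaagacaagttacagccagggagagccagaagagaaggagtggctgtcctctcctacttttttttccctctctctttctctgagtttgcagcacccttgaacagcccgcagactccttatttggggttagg
Fgf7: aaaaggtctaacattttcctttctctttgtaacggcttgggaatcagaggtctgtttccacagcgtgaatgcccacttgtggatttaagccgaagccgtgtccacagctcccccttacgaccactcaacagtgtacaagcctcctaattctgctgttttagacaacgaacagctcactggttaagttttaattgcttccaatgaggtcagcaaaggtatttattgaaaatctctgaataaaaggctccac
The motifs searched on both strands were ACGTG (the core of the hypoxia response element), GGGCGG (the Sp1 box), TTTGAA (the cell cycle homology region) and TATAAA (the TATA box). Among 32851 RefSeq promoters of the same length, 16.6%, 32.7%, 16% and 12.4% held them. The Pdgfra stretch held 1 match, to TTTGAA, and those of Pdgfc and Fgf7 held none. The Pdgfra stretch had 4 CpG sites, that of Pdgfc 3 and that of Fgf7 6, where the median promoter had 6 and 62.2%, 71% and 50.4% of promoters had at least as many. The Fgf2 stretch, not printed, had 20 CpG sites and a GGGCGG match, and both entries of Pdgfa had a GGGCGG match with 19 and 28 CpG sites. Of the members, 7 of 10 had an entry, and Pdgfb, Pdgfrb and Fgfr1 had none. A match describes the letters only.

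Among the PDGF ligands, Pdgfb was lower in p27K high cells, Pdgfc was higher in 4T07 and EMT6, Pdgfa was higher in 4T07, and Pdgfd was barely counted. Pdgfa (GRCm38 chr5:138976014-138997370, minus strand), which encodes the PDGF-A chain, was at 183, 258, 140 and 166 CPM in the p27K high libraries of 4T07 tumours 1 to 4. The p27K negative libraries of the same tumours were at 132, 135, 120 and 132 CPM, below every p27K high library. The rise was 0.49 ± 0.12 (edgeR adjusted p = 0.0148), and without tumour 1 the adjusted p was 0.0665. In D2A1 the p27K high libraries were spread widely, at 72.8, 68.8, 119 and 50.1 CPM, on both sides of the p27K negative ones at 86.9, 78.1, 83 and 77.8 CPM. The D2A1 change was -0.16 ± 0.16 (95% interval -0.51 to 0.19, edgeR adjusted p = 0.513). Tumour 3 alone was higher in p27K high cells there, and leaving it out gave -0.40 (adjusted p = 0.00923), past the threshold. In EMT6 Pdgfa stood at 49.8 ± 6.44 CPM (SD, n = 4) in p27K high and 44.1 ± 4.36 CPM in p27K negative libraries, a change of 0.17 ± 0.08 (interval -0.01 to 0.36, edgeR adjusted p = 0.109). The average over lines, 0.20 ± 0.08, did not pass the threshold (edgeR adjusted p = 0.0566), and 9 of 12 tumours were higher. An antisense transcript, 6330403L08Rik, overlaps Pdgfa, and strand use in counting is not given.

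Pdgfb (chr15:79995874-80014977, minus strand), the PDGF-B chain, is known as a product of endothelial cells, platelets and macrophages. In 4T07 it was at 0.882, 0.81, 0.636 and 1.11 CPM in p27K high libraries of tumours 1 to 4. The p27K negative libraries were at 7.38, 4.25, 4.03 and 4.45 CPM, each several times the level in the same tumour's p27K high cells. The fall was -2.53 ± 0.25 (edgeR adjusted p = 0.000252), on 111 against 680 counts. In D2A1 the p27K high libraries were at 1.05, 0.49, 0.618 and 0.551 CPM and the p27K negative ones at 12.6, 2.34, 1.11 and 1.47 CPM. The fall was -2.29 ± 0.52 (edgeR adjusted p = 0.00523), on 43 counts over the p27K high and 47 over the p27K negative libraries. The groups did not overlap, but by a narrow gap: 1.05 CPM in p27K high tumour 1 rests on 21 counts. The 1.11 CPM in p27K negative tumour 3 rests on 2 counts. The size of this fall is therefore uncertain. The p27K negative library of tumour 1 was far above the others, and leaving that tumour out gave -1.55 (adjusted p = 0.0822). In EMT6 Pdgfb was near the limit of counting, with 2 counts over the p27K high and 18 over the p27K negative libraries, and was not tested in that line. On average over lines Pdgfb fell by 2.55 (SE 0.34, edgeR adjusted p = 6.84e-06), and after scaling it was lower in 12 of 12 tumours. The average gives each line the same weight, at -2.50 in 4T07, -2.27 in D2A1 and -2.88 in EMT6. Its EMT6 part rests on the few counts just given. Some tumours rest on few counts too: D2A1 tumour 3 had 4 in p27K high and 2 in p27K negative cells. EMT6 tumour 1 had 0 and 1.

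Endothelial cells, macrophages and platelets make PDGF-B, and their markers were set beside Pdgfb. The 12 macrophage and monocyte markers, all of which were detected, summed to 89 to 118 CPM in 4T07 p27K high and 457 to 1100 CPM in p27K negative libraries, and 12 of 12 fell. In D2A1 they summed to 10.2 to 27.6 and 17.8 to 58 CPM, with 0 of 7 tested called by edgeR, 4 lower at an unadjusted p under 0.05, 2 called lower by DESeq2 and 5 by limma voom. In EMT6, where Pdgfb was not tested, the macrophage sums were 32.9 to 44.1 CPM in p27K high and 24.9 to 33.5 CPM in p27K negative libraries. The 11 endothelial markers summed to 3.2 to 7.16 CPM in 4T07 p27K high libraries, where 1 of them was at 0, and to 12.3 to 19.8 CPM in p27K negative libraries. Pecam1 and Cdh5 were among the 5 of 7 endothelial markers tested that fell in 4T07. They were the 2 that fell in D2A1, where only 3 of the 11 were tested. Their D2A1 means were 0.807 and 0.649 CPM in p27K high and 4.63 and 4.79 CPM in p27K negative libraries. All 11 together had 47, 33, 33 and 289 counts in the D2A1 p27K negative libraries of tumours 1 to 4. Those D2A1 falls therefore rest on few counts, and their share does not speak for the markers not tested. Of all genes tested, 23.6% fell in 4T07 and 14.7% in D2A1. The D2A1 sums of the endothelial markers were 2.51 to 11.5 and 15.4 to 34.9 CPM, with the highest in the p27K negative library of tumour 1. The 6 platelet and megakaryocyte markers had D2A1 sums of 5.37 to 9.91 CPM in p27K high and 2.23 to 7.02 CPM in p27K negative libraries. Of them Itga2b rose in D2A1 (0.99 ± 0.32, edgeR adjusted p = 0.0347) and EMT6 (0.82 ± 0.12, edgeR adjusted p = 0.000377), Gp1bb rose in EMT6 and Pf4 fell in 4T07, all named after their values were seen. Their sums were 2.31 to 6.22 and 4.24 to 7 CPM in 4T07 and 16.1 to 20.6 and 9.04 to 12.6 CPM in EMT6. The part of these cells in the change of Pdgfb was not tested. In bulk RNA, fewer cells of a type and less RNA per cell cannot be told apart.

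Pdgfc (chr3:81036416-81214040, plus strand) encodes PDGF-C, a ligand that proteases must cut to become active. In 4T07 it was at 40.1, 41.3, 42.6 and 33.3 CPM in p27K high and 25.4, 19.9, 21.2 and 17 CPM in p27K negative libraries of tumours 1 to 4. The lowest p27K high library stood above the highest p27K negative one, and the rise was 0.92 ± 0.10 (edgeR adjusted p = 0.00041). In EMT6 the p27K high libraries of tumours 0, 1, 2 and 4 were at 82.5, 92.8, 75 and 89.4 CPM. Their p27K negative partners were at 56.7, 71.4, 48.5 and 67.9 CPM, again without overlap, for a rise of 0.49 ± 0.06 (edgeR adjusted p = 0.00011). D2A1 showed no such step: the p27K high libraries were at 50.1, 37.3, 37.3 and 23.6 CPM and the p27K negative ones at 43.8, 30.9, 40.4 and 23.1 CPM. Tumours differed from each other more than the gates did there, and the change was 0.09 ± 0.14 (interval -0.20 to 0.38, edgeR adjusted p = 0.657). The change differed between lines (edgeR adjusted p = 0.00229), and without the tumour block that p was 0.191. On average Pdgfc rose by 0.53 ± 0.06 (edgeR adjusted p = 4.57e-07), and it was higher in 11 of 12 tumours.

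Pdgfd (chr9:6168584-6378850, plus strand), the PDGF-D chain, had 1 count in the 4 p27K high and 1 in the 4 p27K negative libraries of 4T07. It had 0 and 4 counts in D2A1, and 2 and 1 in EMT6. A count of 0 over the D2A1 p27K high libraries allows up to 0.049 CPM, by 3 counts over their summed total, as a limit of counting error only. No test of Pdgfd was made.

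Both PDGF receptors rose in p27K high cells of all 3 lines. Pdgfra (chr5:75152292-75198215, plus strand), whose upstream stretch is printed above, was the higher of both per kilobase in 4T07. Its 4T07 p27K high libraries were at 671, 669, 731 and 736 CPM and the p27K negative ones at 312, 319, 328 and 295 CPM. Replicates lay close together, and the mean went from 314 ± 14 to 702 ± 37 CPM (SD, n = 4). The rise was 1.16 ± 0.08, or 2.24-fold (edgeR adjusted p = 3.15e-05). In D2A1 the p27K high libraries were at 574, 533, 431 and 560 CPM and the p27K negative ones at 228, 236, 274 and 256 CPM, a rise of 1.07 ± 0.13 (edgeR adjusted p = 3.81e-05). In EMT6 they were at 233, 217, 213 and 255 CPM against 109, 151, 109 and 160 CPM in tumours 0, 1, 2 and 4, a rise of 0.81 ± 0.09 (edgeR adjusted p = 5.84e-05). No line showed an overlap between gates. On average Pdgfra rose by 1.05 ± 0.07 (edgeR adjusted p = 4.98e-10) and was higher in 12 of 12 tumours. The test of a difference between lines did not pass (edgeR adjusted p = 0.157), though without D2A1 tumour 3 that p was 0.0345.

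Pdgfrb (chr18:61045150-61085061, plus strand) was at 58.5, 37, 43.5 and 68.1 CPM in the p27K high libraries of 4T07 and at 33.5, 35.5, 26.7 and 32.5 CPM in the p27K negative ones. Tumour 2 hardly differed between gates and tumour 4 differed most. The rise was 0.66 ± 0.16 (edgeR adjusted p = 0.0124), with an adjusted p of 0.0697 without tumour 1 and 0.0569 without tumour 4. In D2A1 the p27K high libraries were at 387, 289, 324 and 253 CPM and the p27K negative ones at 151, 129, 171 and 117 CPM. All 4 D2A1 tumours were higher in p27K high cells by a like step, and the rise was 1.14 ± 0.12 (edgeR adjusted p = 8.6e-06). In EMT6 the tumours 0, 1, 2 and 4 were at 136, 277, 209 and 294 CPM in p27K high and 94.6, 220, 113 and 203 CPM in p27K negative cells. There the gates overlapped across tumours while each tumour was higher in its p27K high cells. The EMT6 rise was 0.57 ± 0.08 (edgeR adjusted p = 0.000302), and without the tumour block the adjusted p was 0.202. On average Pdgfrb rose by 0.82 ± 0.08 (edgeR adjusted p = 1.22e-07), higher in 12 of 12 tumours. The difference between lines (edgeR adjusted p = 0.0461) was lost under 11 of 18 alternatives.

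Fibroblast and pericyte markers were set beside the receptors, since those cells carry both receptors in tissue. The 15 fibroblast markers, none at 0, summed to 1054 to 1834 CPM in 4T07 p27K high and 543 to 699 CPM in p27K negative libraries. That gap was in Dcn, which averaged 1139 and 265 CPM, while the other 14 summed to 269 to 416 and 297 to 406 CPM (a split made after the values were seen). In D2A1 the order was the reverse, with 482 to 701 CPM in p27K high and 709 to 854 CPM in p27K negative libraries, while Pdgfra and Pdgfrb rose. In EMT6 the sums were 7584 to 10037 and 5847 to 7874 CPM. Of all genes tested, 22.1%, 14.9% and 24.1% rose and 23.6%, 14.7% and 25.1% fell in 4T07, D2A1 and EMT6. Of the fibroblast markers, 3 of 13 tested rose and 2 fell in 4T07, with a median of -0.55. In D2A1 3 of 13 rose and 6 fell (median -1.0), and in EMT6 7 of 11 rose and 0 fell (median 0.37). The EMT6 count of 0 by edgeR was also 0 at an unadjusted p under 0.05, by DESeq2 and by limma voom. The 12 pericyte and smooth muscle markers summed to 20.5 to 30.4 CPM in 4T07 p27K high and 33.8 to 36 CPM in p27K negative libraries. Their D2A1 sums were 11.8 to 17.5 and 29.7 to 36 CPM, and their EMT6 sums 324 to 622 and 397 to 660 CPM. The part of fibroblasts and pericytes in the rise of the receptors was not tested in any line.

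Of Fgf2 and Fgf7, the prevailing transcript differed by line, and Fgf7 rose in 4T07 and EMT6 and Fgf2 in D2A1 and EMT6. Fgf2 (chr3:37348346-37410108, plus strand), basic FGF, was near the limit of counting in 4T07, with 28 counts over the p27K high and 56 over the p27K negative libraries, and was not tested there. In D2A1 it was at 65.1, 67.1, 50.9 and 77.4 CPM in p27K high and 29.7, 37.4, 43.7 and 43 CPM in p27K negative libraries. The gates did not overlap, and the rise was 0.76 ± 0.15 (edgeR adjusted p = 0.00206). In EMT6 the p27K high libraries of tumours 0, 1, 2 and 4 were at 9.36, 14.1, 9.18 and 11 CPM and the p27K negative ones at 6.79, 13.1, 6.05 and 7.02 CPM. Tumour 1 was the highest in both gates and hardly differed between them. The EMT6 rise was 0.44 ± 0.12 (edgeR adjusted p = 0.0123). Its adjusted p was 0.0614 without tumour 2, 0.0665 without tumour 4 and 0.252 without the tumour block. Nudt6 lies antisense over Fgf2, and strand use in counting is not given. On average over lines the change of Fgf2 was 0.12 ± 0.21 (edgeR adjusted p = 0.665). That average gives each line the same weight, at -0.90 in 4T07, 0.82 in D2A1 and 0.45 in EMT6. Its 4T07 part rests on the few counts given above.

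Fgf7 (chr2:126034658-126091185, plus strand), whose upstream stretch is printed above, was counted at high levels in 4T07 and low levels in the other lines. The 4T07 p27K high libraries were at 106, 212, 66 and 127 CPM and the p27K negative ones at 42.5, 52.1, 37.5 and 57.7 CPM. Tumours differed widely in the p27K high cells, and every one of them exceeded every p27K negative library. The rise was 1.33 ± 0.18, or 2.51-fold (edgeR adjusted p = 0.00108). In EMT6 the p27K high libraries of tumours 0, 1, 2 and 4 were at 10.4, 3.02, 3.79 and 3.61 CPM and the p27K negative ones at 0.878, 1.23, 0.979 and 2.51 CPM. The rise was 1.79 ± 0.41 (edgeR adjusted p = 0.00533). Without tumour 0, whose p27K high library stood apart, it was 1.17 ± 0.26 (edgeR adjusted p = 0.00161), so the call held at a smaller size. In D2A1 Fgf7 was at 1.25 to 3.3 CPM in p27K high and 0.554 to 2.23 CPM in p27K negative libraries, on 116 and 31 counts, and the gates overlapped. The D2A1 change was 0.51 ± 0.51 (interval -0.59 to 1.60, edgeR adjusted p = 0.497), too wide to tell a rise like that of 4T07 from none. On average Fgf7 rose by 1.32 ± 0.25 (edgeR adjusted p = 0.000235), and 10 of 12 tumours were higher. That average gives each line the same weight, at 1.36 in 4T07, 0.81 in D2A1 and 1.81 in EMT6 with tumour 0 included. Over 18 alternatives, which include leaving out each tumour, it ranged from 1.01 to 1.51 and the call was kept.

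The FGF receptors divided by line in the same manner. Fgfr1 (chr8:25513654-25575718, plus strand), a receptor of mesenchymal cells among others, was at 1064, 879, 922 and 892 CPM in D2A1 p27K high and 468, 448, 503 and 491 CPM in p27K negative libraries. The gap between the gates was several times the spread within them, and the rise was 0.97 ± 0.11, or 1.96-fold (edgeR adjusted p = 2.91e-05). In EMT6 the tumours 0, 1, 2 and 4 were at 344, 361, 339 and 336 CPM in p27K high and 241, 242, 206 and 226 CPM in p27K negative cells. The EMT6 rise was 0.60 ± 0.05, without overlap (edgeR adjusted p = 8.85e-06). In 4T07 Fgfr1 was low, at 12.2, 12, 17.9 and 17.5 CPM in p27K high and 9.21, 8.04, 14.8 and 10.2 CPM in p27K negative libraries. Here the gates overlapped, though each tumour was higher in its p27K high cells. The 4T07 rise was 0.51 ± 0.13 (edgeR adjusted p = 0.0138). Its adjusted p was 0.0526 without tumour 1, 0.0848 without tumour 4 and 0.107 without the tumour block. On average Fgfr1 rose by 0.72 ± 0.05 (edgeR adjusted p = 4.95e-09) and was higher in 12 of 12 tumours. The change differed between lines (edgeR adjusted p = 0.0186), which was lost without the tumour block (0.173) and without D2A1 tumour 1 (0.0608).

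Fgfr2 (chr7:130162451-133123350, minus strand in the annotation) was the higher of Fgfr1 and Fgfr2 in 4T07. It was at 233, 169, 227 and 176 CPM in p27K high and 233, 207, 211 and 186 CPM in p27K negative libraries of tumours 1 to 4. The gates covered the same range, and the change was -0.07 ± 0.09 (interval -0.27 to 0.14, edgeR adjusted p = 0.565). That interval leaves out a rise of the size of Fgfr1 in the same line. In D2A1 Fgfr2 was at 0.0613 to 1 CPM in p27K high and 0 to 8.17 CPM in p27K negative libraries, on 24 and 12 counts, with the highest of each gate in tumour 1. That p27K negative library is the one with the raised epithelial markers, whose part was not tested. In EMT6 it was at 14, 1.33, 0.249 and 0.349 CPM in p27K high and 0.176, 0.528, 0.23 and 1.29 CPM in p27K negative cells of tumours 0, 1, 2 and 4. The value of 14 CPM comes from the library that stood apart, and Fgfr2 was not tested in D2A1 or EMT6. The joint fit gave an average of -0.01 ± 0.35 (edgeR adjusted p = 1). Without EMT6 tumour 0 the average was -0.85 with an adjusted p of 0.0423. Its difference between lines (edgeR adjusted p = 0.0463) had an adjusted p of 0.131 without that tumour and of 0.65 by DESeq2, and was lost under 11 of 18 alternatives. The annotated span of Fgfr2 is unusually long and shares exons with Ctbp2, so its counts may include or lose reads of that gene.

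Levels are set side by side across lines as a description, since each line was sequenced apart. In p27K high cells mean Fgfr1 was 63 times as high in D2A1 as in 4T07, and Fgf7 was 69.1 times as high in 4T07 as in D2A1. Mean Fgf2 was 5.97 times as high in D2A1 as in EMT6, and Pdgfrb was 6.05 times as high in D2A1 as in 4T07. Pdgfra was 3.06 times as high in 4T07 as in EMT6 and 1.34 times as high as in D2A1, and Pdgfa 3.75 times as high in 4T07 as in EMT6. Pdgfc was highest in EMT6, at 2.16 times its 4T07 and 2.29 times its D2A1 level. In the order of the 6 line and gate groups, Pdgfra was highest in 4T07 p27K high, then D2A1 p27K high, 4T07 p27K negative and D2A1 p27K negative cells, and the first 3 steps of that order showed no overlap. For Pdgfa the groups below both 4T07 groups overlapped each other in turn, and for Pdgfc the groups below both EMT6 groups did. For Pdgfb each group overlapped the next.

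Per kilobase of annotated exon, so that genes can be compared, the make-up of each pool is given by line and gate. Pdgfra made up 88.2% ± 2.69 (SD, n = 4) of PDGF receptor CPM per kilobase in 4T07 p27K high and 84.2% ± 1.89 in p27K negative cells. In D2A1 it made up 48% ± 5.62 and 49.1% ± 4.12, and in EMT6 36.6% ± 8.2 and 32.7% ± 4.99. Alpha receptor transcripts thus prevailed in 4T07, both were near equal in D2A1 and beta receptor transcripts prevailed in EMT6. Without the length term Pdgfra was the higher receptor in 19 libraries, and with it in 12 of 24. Pdgfa made up 87.9% ± 2.87 and 88.7% ± 1.92 of PDGF ligand in 4T07 and 76.3% ± 5.75 and 77.2% ± 5.77 in D2A1. In EMT6 Pdgfa (48.8% ± 5 and 54% ± 6.09) and Pdgfc (51.1% ± 5.03 and 45.7% ± 6.06) were near equal per kilobase. Without the length term Pdgfc was the larger part there, at 63% ± 4.69 and 57.7% ± 6.08, with Pdgfa at 37% ± 4.66 and 42% ± 6.11. The Pdgfb share was 0.315% ± 0.0957 in 4T07 p27K high and 2.56% ± 0.705 in p27K negative cells, so the ligand that fell was a minor part of the pool. Of Fgfr1 and Fgfr2, Fgfr2 made up 92.7% ± 1.74 and 95% ± 1.39 in 4T07 and at most 3.75% in any D2A1 or EMT6 library. Of Fgf2 and Fgf7, Fgf7 made up 99.9% ± 0.174 and 99.6% ± 0.158 in 4T07, whereas Fgf2 made up 94.5% ± 2.06 and 91.9% ± 4.62 in D2A1. In EMT6 Fgf2 made up 53% ± 16.6 of p27K high and 73.6% ± 11.5 of p27K negative cells, with the lowest share, 30.1%, in the p27K high library of tumour 0 that stood apart. Without tumour 0, left out after the values were seen, the shares were 60.7% ± 7.77 and 71.9% ± 13.4 (SD, n = 3), and the gates overlapped.

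**Figure D3:**
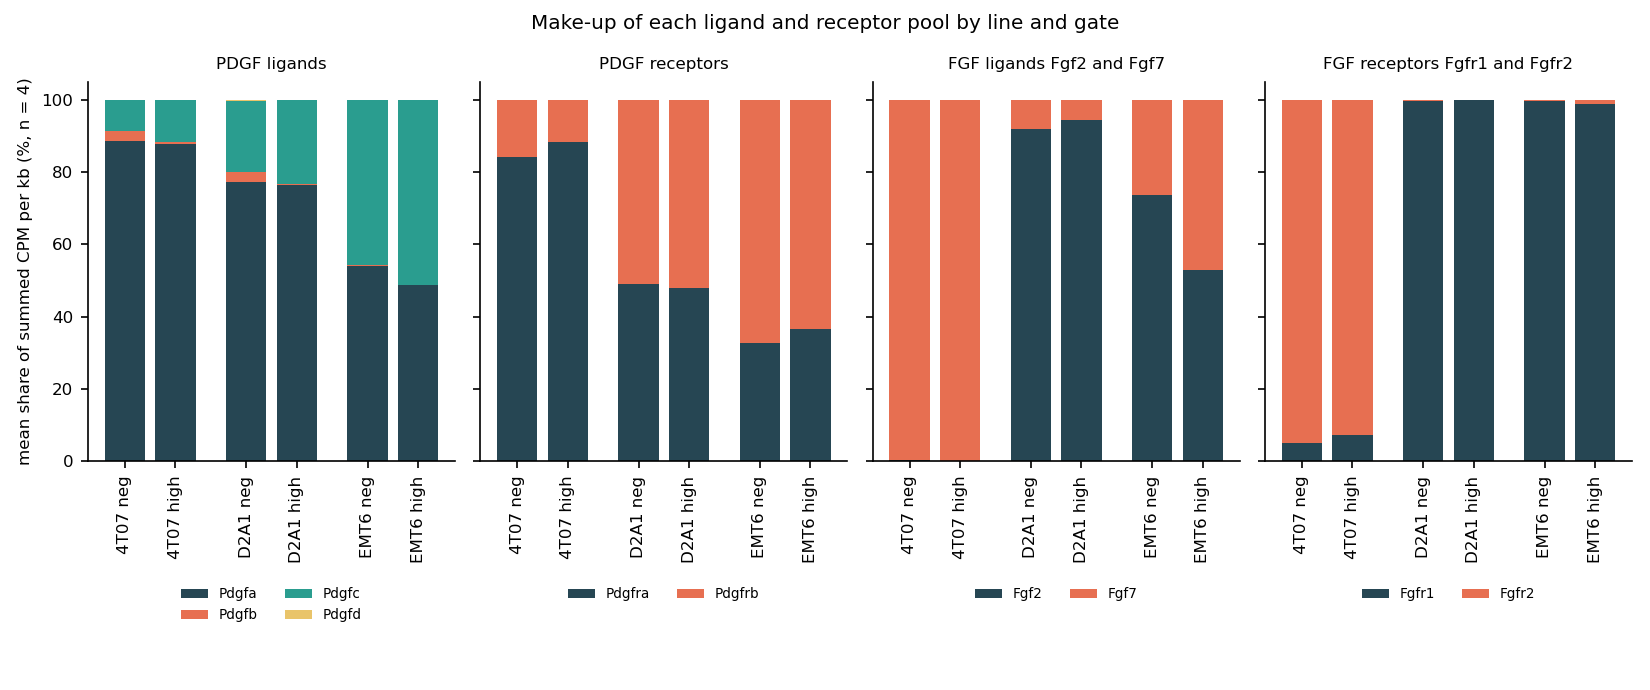
Mean share of each gene in its pool, in percent of summed CPM per kilobase of exon over 4 libraries, for p27K negative (neg) and p27K high libraries of each line. The widest gap between gates is in the pool of Fgf2 and Fgf7 in EMT6, where 1 p27K high library stood apart. The FGF pools, of 2 genes each, switch from Fgf7 and Fgfr2 in 4T07 to Fgf2 and Fgfr1 in D2A1.

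Beyond the 10 members, 109 other pathway genes were listed, also with earlier results of these data known. In 4T07, 78 of them were tested, of which 26 rose and 13 fell, with a median of 0.10. In D2A1, 79 were tested, of which 26 rose and 7 fell (median 0.23), and in EMT6, 78 were tested, of which 35 rose and 11 fell (median 0.16). That is 33.3%, 32.9% and 44.9% rising in 4T07, D2A1 and EMT6, beside 22.1%, 14.9% and 24.1% of all genes tested. The shares that fell were 16.7%, 8.86% and 14.1%, beside 23.6%, 14.7% and 25.1% of all genes. The medians of all genes were at most 0.02. Of the 20 other FGF ligands 3, 3 and 2 were tested in 4T07, D2A1 and EMT6. Fgf11, an FGF that stays inside the cell, rose in 4T07 (1.09 ± 0.22, edgeR adjusted p = 0.00567) and EMT6 (0.68 ± 0.07, edgeR adjusted p = 3.93e-05). Its EMT6 means were 36.6 CPM in p27K high and 22.9 CPM in p27K negative libraries, above those of Fgf2 and Fgf7 in that line. Of the other FGF receptors and Klotho co-receptors, Fgfrl1, an FGF receptor without a kinase domain, rose in all 3 lines. Its level went from 48.2 to 84.4 CPM in 4T07, from 18.3 to 37.9 CPM in D2A1 and from 30.4 to 54.1 CPM in EMT6. Among the relatives of the PDGF receptors, Csf1r, the receptor of macrophages, fell in 4T07 (-2.63 ± 0.22, edgeR adjusted p = 9.51e-05) and rose in EMT6 (0.70 ± 0.13, edgeR adjusted p = 0.00182). Csf1r is itself among the macrophage markers counted above. Pdgfrl, a PDGF receptor-like gene without a kinase domain, rose in 4T07 (0.89 ± 0.17, edgeR adjusted p = 0.00449) and D2A1 (1.70 ± 0.21, edgeR adjusted p = 5.91e-05).

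Heparan sulfate genes, which set how FGFs reach their receptors, were counted next. Of 19 listed, 3 of 14 tested rose and 0 fell in 4T07, 7 of 17 rose and 2 fell in D2A1, and 5 of 16 rose and 1 fell in EMT6. The rising shares of 21.4%, 41.2% and 31.2% stood beside 22.1%, 14.9% and 24.1% of all genes, so that of 4T07 was at the background, and the medians were -0.08, 0.31 and 0.10. Beside the 0 by edgeR in 4T07, 2 were lower at an unadjusted p under 0.05, 1 fell by DESeq2 and 2 fell by limma voom. Of all genes tested, 23.6%, 14.7% and 25.1% fell in 4T07, D2A1 and EMT6. Sdc2, a cell surface heparan sulfate proteoglycan, rose from 173 to 372 CPM in 4T07, from 133 to 201 CPM in D2A1 and from 418 to 601 CPM in EMT6. Ext1, an enzyme that builds the heparan sulfate chain, rose by 0.70 ± 0.10, 0.45 ± 0.11 and 0.32 ± 0.04 in the same order. Sulf1, which strips sulfate groups from heparan sulfate, fell in D2A1 (-5.33 ± 0.78, edgeR adjusted p = 0.000207) and EMT6 (-0.78 ± 0.28, edgeR adjusted p = 0.0435). Its level was low, at most 3.79 CPM as a group mean in those lines. In D2A1 it was at 0.105 ± 0.146 CPM in p27K high and 3.79 ± 2.76 CPM in p27K negative libraries (SD, n = 4). The size of the D2A1 fall is therefore uncertain. The related Sulf2 rose in 4T07 (0.97 ± 0.13) and in D2A1 (0.64 ± 0.12), where it went from 665 to 1039 CPM. Of 10 genes of PDGF ligand processing and the co-receptors, 2 of 8 tested rose and 3 fell in 4T07 (median -0.41), 1 of 7 rose and 0 fell in D2A1 (0.22), and 3 of 7 rose and 0 fell in EMT6 (0.15). Beside the 0 by edgeR, 1 was lower in D2A1 at an unadjusted p under 0.05, 0 fell by DESeq2 and 1 by limma voom, and in EMT6 each of these was 0. The 4T07 falls were in the protease genes Plat (-0.73 ± 0.14), Plau (-1.14 ± 0.07) and St14 (-1.53 ± 0.37), named after their values were seen. Furin, a protease that cuts PDGF precursors, was at -0.38 ± 0.15 in 4T07 (edgeR adjusted p = 0.0679) and rose in D2A1 (0.37 ± 0.13, edgeR adjusted p = 0.0477) and EMT6 (0.15 ± 0.04, edgeR adjusted p = 0.0186). The co-receptor gene Nrp2 rose in 4T07 (0.60 ± 0.09, edgeR adjusted p = 0.00163) and EMT6 (0.21 ± 0.04, edgeR adjusted p = 0.00193).

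Downstream of the receptors, of 12 genes of the RAS-ERK cascade, all tested, 3 rose and 3 fell in 4T07, 2 and 2 in D2A1, and 4 and 3 in EMT6. These shares, 25%, 16.7% and 33.3% rising and 25%, 16.7% and 25% falling, were near those of all genes given above. Hras, a small GTPase of the cascade, fell in every line, with changes of -0.53 ± 0.09, -0.48 ± 0.14 and -0.57 ± 0.07 in 4T07, D2A1 and EMT6. The kinase genes Araf and Map2k1 rose in every line, Araf by 0.49 ± 0.10, 0.38 ± 0.12 and 0.39 ± 0.07 and Map2k1 by 0.59 ± 0.07, 0.56 ± 0.11 and 0.26 ± 0.05. Of 23 adaptor and proximal signalling genes, 7 of 21 tested rose and 3 fell in 4T07. In D2A1 6 of 20 rose and 3 fell, and in EMT6 10 of 21 rose and 4 fell. Rising shares were 33.3%, 30% and 47.6%, beside 22.1%, 14.9% and 24.1% of all genes tested. Falling shares were 14.3%, 15% and 19%, beside 23.6%, 14.7% and 25.1%. Plcg1, a phospholipase bound by both receptor families, rose by 0.36 ± 0.09, 0.37 ± 0.12 and 0.42 ± 0.09. Cblb, a ubiquitin ligase that turns receptors over, rose by 0.98 ± 0.08, 0.56 ± 0.13 and 0.89 ± 0.12. Flrt3, which binds FGF receptors, rose in every line, and Flrt2 fell in 4T07 (-2.43 ± 0.30) and rose in EMT6 (0.39 ± 0.07).

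The feedback inhibitors and transcription factors that FGF and ERK signalling is known to induce did not move as a block. Of 16 genes, all tested, 7 rose and 3 fell in 4T07, 8 rose and 0 fell in D2A1, and 10 rose and 2 fell in EMT6, with medians of 0.13, 0.46 and 0.28. The rising shares were 43.8%, 50% and 62.5%, beside 22.1%, 14.9% and 24.1% of all genes, and the falling shares 18.8%, 0% and 12.5%, beside 23.6%, 14.7% and 25.1%. The count of 0 in D2A1 by edgeR was also 0 at an unadjusted p under 0.05, by DESeq2 and by limma voom. Spry1, a Sprouty inhibitor, rose from 105 to 143 CPM in 4T07, from 126 to 282 CPM in D2A1 and from 30 to 49.2 CPM in EMT6. The phosphatase genes Dusp4 (0.95 ± 0.09, 0.69 ± 0.13 and 1.01 ± 0.06) and Dusp6 (0.25 ± 0.07, 0.74 ± 0.11 and 0.74 ± 0.07) rose in every line, as did Spred3 and Fos. Against these, Etv4, an ETS factor known as a target of FGF signalling, fell in 4T07 (-1.22 ± 0.16, edgeR adjusted p = 0.000984) and EMT6 (-0.77 ± 0.07, edgeR adjusted p = 2.36e-05). In D2A1 Etv4 was at 88.1 ± 8.41 and 87.1 ± 5.03 CPM in p27K high and negative cells (SD, n = 4), a change of 0.01 ± 0.12 (edgeR adjusted p = 0.975). The change of Etv4 differed between lines (edgeR adjusted p = 0.00079), as did that of Spry1 (edgeR adjusted p = 0.00507) and Dusp6 (edgeR adjusted p = 0.0103).

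**Figure D4:**
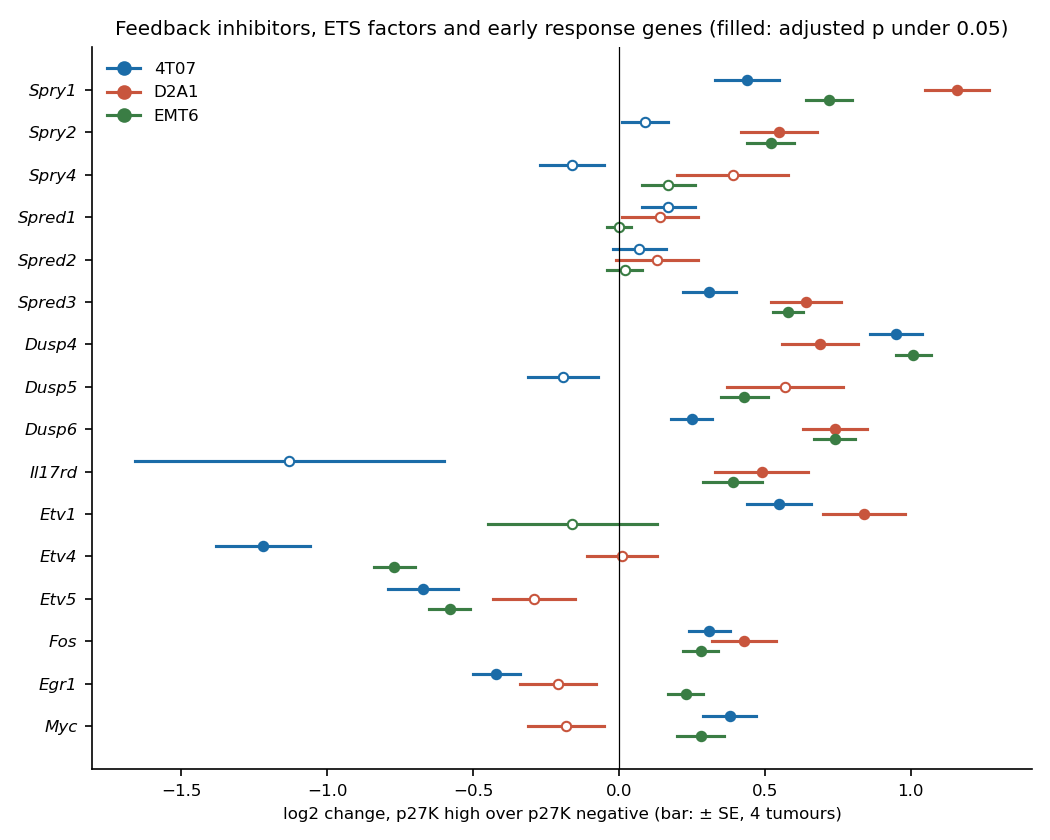
Change of 16 feedback inhibitors, ETS factors and early response genes between gates by line, as log2 of p27K high over p27K negative with its SE over 4 tumours; filled points were called at an adjusted p under 0.05. Spry1, Spred3, Dusp4, Dusp6 and Fos lie to the right of 0 in the 3 lines, while Etv4 lies to the left in 4T07 and EMT6.

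The genes whose gate difference varied over the 12 tumours most like that of a member were found by Pearson's r, over 9650 genes with a mean of at least 5 CPM. The r is a description over tumours of 3 lines, so shared differences between lines and runs enter it. For Pdgfra these were Rnf103 (r = 0.92), Susd6 (0.91) and Zfp866 (0.89), and for Pdgfrb Alg1 (0.92) and Kdm2b (0.91). For Fgfr1 they were Gmnn (0.93), Mief2 (0.93) and Lhfpl2 (0.90). Pdgfc was closest to Sec31a (0.95), Tsc22d2 (0.95) and Naa25 (0.94), and Fgf7 to Ift81 (0.91), Npnt (0.88) and Mtap (0.88). For Pdgfa they were Taf1b (0.95), Sp100 (0.94) and Rpl31 (0.93). Among the members, Pdgfrb and Fgfr1 had r = 0.71 and Pdgfa and Pdgfrb r = -0.66.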

How the data were processed

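RNA was measured in 24 libraries, and the authors deposited whole-number gene counts, not normalized, in a table per line. Per the labels' protocols, digested tumours were stained for the leukocyte marker CD45 and sorted by the mVenus reporter, and the sequencing provider made the count matrices. Build mm10 and DESeq2 are named in the submitters' processing notes. The gate settings, aligner, counter and strandedness were not given in the sources used here. Entries with a blank name (176 in each of the D2A1 and EMT6 tables, at most 0.0109% of a library) and 4 entries per table with a date for a symbol were left out. Symbols of the 4T07 table are in capitals and were matched to those of the other tables.

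Changes within a line come from edgeR 4.0.16 under R 4.3.3 (quasi-likelihood, TMM scaling, filterByExpr defaults, tumour blocked), and p-values were adjusted over all genes tested. The SE is the size of the change over the square root of F. The labels' tumour numbers pair the gates for 4T07 and D2A1. For EMT6 the numbers in the column names, not those of the titles, were used, because deviations from the group means correlated between libraries of 1 number (0.625, 0.589, 0.808 and 0.643 across 5000 genes). In 4T07 r was 0.787, 0.686, 0.591 and 0.181 and in D2A1 0.121, 0.219, 0.109 and 0.305. A p-value here reflects how the gate difference varied from tumour to tumour. Alternatives used DESeq2 1.42.0 and limma 3.58.1, other scalings, other filters, no block and each tumour left out. Scripts were tested on simulated data. Exon lengths and 1-based coordinates were read from GENCODE vM21 (GRCm38), and upstream stretches are from RefSeq.

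The members and gene lists were chosen with earlier results of these data known. Genes beyond the members were named where the same call was made in 2 or more lines or opposite calls were made (the 6 smallest p of the average where a list had more), and the 3 most like genes per member by r. A few genes chosen this way are not reported here.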

Additional observations from a re-analysis of the deposited data

Results flagged for a closer look

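Single libraries stood apart in 8 of 53 groups of 4 libraries checked by Dixon's ratio, and chance flags about 1 in 20 groups. Pdgfb was at 7.38 CPM in the 4T07 p27K negative library of tumour 1, with the others at 4.03 to 4.45 CPM. It was at 12.6 CPM in the D2A1 p27K negative library of tumour 1, with the others at 1.11 to 2.34 CPM. Fgfr2 stood at 8.17 CPM in that same D2A1 library, against 0 to 0.554 CPM in the others, and at 1 CPM in the p27K high library of the same tumour, against 0.0613 to 0.155 CPM. Fgf7 was at 3.3 CPM in the D2A1 p27K high library of tumour 4, with the others at 1.25 to 1.55 CPM. In the EMT6 p27K high library of tumour 0, Fgf7 was at 10.4 CPM against 3.02 to 3.79 CPM in the others and Fgfr2 at 14 CPM against 0.249 to 1.33 CPM. Fgf2 was at 13.1 CPM in the EMT6 p27K negative library of tumour 1, with the others at 6.05 to 7.02 CPM.

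The gate change differed between lines, by the joint fit of edgeR, for Pdgfc (adjusted p = 0.00229), Fgfr1 (adjusted p = 0.0186), Pdgfrb (adjusted p = 0.0461) and Fgfr2 (adjusted p = 0.0463). The change was largest in 4T07 for Pdgfc and in D2A1 for Fgfr1 and Pdgfrb.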

How the results depend on the processing

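Over 41 single-gene results and 575 alternatives, 525 kept their direction and side of the threshold, 36 lost a call, 14 gained one and 0 reversed. Of the calls, 4 of 7 in 4T07, 4 of 5 in D2A1, 4 of 6 in EMT6, 6 of 6 for the average and 0 of 4 for the difference between lines held under every alternative run. Without the replicate block, genes whose change differed between lines went from 3332 to 1607 and members from 4 to 0. All calls in 4T07 numbered 5868, and 3698 to 7727 with a tumour left out (3698 without tumour 1 and 7727 without tumour 2). Those in D2A1 numbered 3794, and 2444 to 5051 with a tumour left out (2444, 2569 and 2534 without tumours 1, 2 and 4). Without the block the calls were 4407 in 4T07 and 4471 in EMT6, against 6567 in EMT6 with it. Members called in 4T07 numbered 7, and 4 to 7 with a tumour left out, with the 4 without tumour 1. Members called as different between lines numbered 1 to 6 with a tumour left out. With no length term Pdgfra was the higher PDGF receptor in 19 libraries and not 12, and Pdgfa the highest PDGF ligand in 17 and not 21. Scaling to total counts moved the median of all genes in 4T07 by -0.14 and the share of calls that rose from 48.3% to 33.2%. Over the 3 lines it moved that share from 54.1% to 40.9% for the average. Without tumour 4, Pdgfb and Fgf7 did not pass the filter in D2A1. The limma voom fit was run within lines and not jointly. Levels under about 1 CPM in the D2A1 p27K negative libraries rest on few counts.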
